A study of Homo sapiens with 8 samples.

Results

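Messenger RNA of 10 ADAMTS proteases was measured in normal human lung fibroblasts exposed to the secretions of other fibroblasts undergoing oncogene-induced senescence. The 10 genes (ADAMTS1, ADAMTS2, ADAMTS4, ADAMTS5, ADAMTS6, ADAMTS8, ADAMTS9, ADAMTS12, ADAMTS14 and ADAMTS15) were taken by symbol from a count table of 27696 genes, and each symbol stood in a single row. They were set in 3 types by what their proteins are known to cut: 6 aggrecanase-type members (ADAMTS1, ADAMTS4, ADAMTS5, ADAMTS8, ADAMTS9 and ADAMTS15), 2 procollagen-type members (ADAMTS2 and ADAMTS14) and 2 other members (ADAMTS6 and ADAMTS12). Recipient cells in all groups were IMR90, a strain of primary fibroblasts from human lung, which spent 3 days in medium taken from cultures of IMR90 ER:RAS fibroblasts. The donor cells carry an oncogenic RAS fused to an estrogen receptor domain, which 4-hydroxytamoxifen (4-OHT) switches on. Group names give the day of 4-OHT induction at which the donor medium was taken (D0, D4, D7 and D10), and D0, the reference group, also received medium from ER:RAS donors. Each group had 2 libraries, replicates 1 and 2, from 2 independent experiments, called experiments 1 and 2 here. The cells come from a single strain, so the spread shown is between experiments and not between donors.

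ADAMTS proteases are secreted zinc metalloproteases with thrombospondin repeats that work in the extracellular matrix. The aggrecanase-type enzymes cut the large chondroitin sulfate proteoglycans, such as aggrecan and versican, while the procollagen-type enzymes remove the amino-terminal propeptide of fibrillar procollagens, which allows fibrils to assemble. In fibroblast-rich tissue both activities shape the matrix, and the enzymes are held in check by TIMP inhibitors and made active by proprotein convertases.

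The catalytic zinc is held by 3 histidines next to a glutamate, and the codons for this motif were compared between the members. Each stretch below is 33 bases of coding sequence, 5′ to 3′, read from the GENCODE 29 transcript on GRCh38. It crosses an exon junction, so the genomic interval is longer than the sequence. Capitals mark the codons of the histidines and the glutamate. The 4 aggrecanase-type members that the results turn on, both procollagen-type members and both other members are shown.
ADAMTS1: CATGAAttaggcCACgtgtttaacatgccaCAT
ADAMTS8: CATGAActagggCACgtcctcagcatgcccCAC
ADAMTS15: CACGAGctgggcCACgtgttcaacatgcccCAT
ADAMTS5: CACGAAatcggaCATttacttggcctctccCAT
ADAMTS2: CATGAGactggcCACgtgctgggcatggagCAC
ADAMTS14: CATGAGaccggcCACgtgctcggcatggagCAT
ADAMTS6: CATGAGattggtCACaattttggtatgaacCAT
ADAMTS12: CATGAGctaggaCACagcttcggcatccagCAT

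The motif of ADAMTS1 lies in exons 3 to 4 at chr21:26841143-26841867 on the minus strand, that of ADAMTS8 in exons 3 to 4 at chr11:130416308-130416949 on the minus strand, and that of ADAMTS15 in exons 2 to 3 at chr11:130461612-130462109 on the plus strand. ADAMTS5 has it in exons 2 to 3 at chr21:26943525-26954748 on the minus strand. In ADAMTS2 it is in exons 7 to 8 at chr5:179154177-179154830 on the minus strand, and in ADAMTS14 in exons 7 to 8 at chr10:70732343-70733900 on the plus strand. ADAMTS6 carries it in exons 9 to 10 at chr5:65300116-65329394, and ADAMTS12 in exons 7 to 8 at chr5:33649682-33658200, both on the minus strand. ADAMTS2 and ADAMTS14 shared 30 of the 33 bases, ADAMTS9 and ADAMTS15 shared 29, and ADAMTS1 and ADAMTS15 shared 27. Pairs within the aggrecanase type shared 19 to 29 bases, with ADAMTS5 the most distant at 19 or 20, and pairs of an aggrecanase-type and a procollagen-type member shared 18 to 23.

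The 10 members lie on chromosomes 1, 3, 5, 10, 11 and 21, and 4 of them form neighbouring pairs. ADAMTS1 (chr21:26835747-26845409) and ADAMTS5 (chr21:26917912-26966513) are both on the minus strand, with 72502 bases and no annotated gene between them. ADAMTS8 (chr11:130404925-130428993, minus strand) and ADAMTS15 (chr11:130448974-130476641, plus strand) point away from each other across 19980 bases, again with no annotated gene between. No exon of another gene overlaps the exons of 9 members. In ADAMTS9, 1.63% of exon bases are shared with the antisense gene ADAMTS9-AS1, which had at most 1 count in any library.

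Libraries held 11708193 to 13395912 counts. The recipient cells carried the fibroblast markers at high levels in all 8 libraries, the epithelial markers in the table summed to at most 0.819 CPM (counts scaled to a common library size) and the leukocyte markers to at most 2.68 CPM. The endothelial sum of 42.5 to 122 CPM was almost wholly TEK, with PECAM1 and CDH5 below 1 CPM. The D10 library of experiment 2 stood apart in its summed fibroblast markers, 11330 CPM against 31678 to 44824 CPM in the other 7. It was also the shallowest, with 11708193 counts against 12591282 in the next, D0 of experiment 1. Much of the marker sum was COL1A1, COL1A2 and COL6A1. These read 1293, 2858 and 3006 CPM there, and 9422, 12373 and 9274 CPM at D10 of experiment 1. The paper reports that collagen genes fell in fibroblasts given senescent medium. All recipient cultures were of the single strain IMR90. In that library the epithelial, leukocyte and endothelial sums were 0.315, 1.02 and 77.7 CPM, none the highest of the 8. The cause of its low fibroblast marker sum was not tested.

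Of the 10 members, 9 passed the filter on low counts, and each of these had at least 12 counts in every library. ADAMTS4, the aggrecanase known from cartilage, had 3, 4, 2 and 3 counts in experiment 1 (D0, D4, D7 and D10) and 4, 4, 8 and 10 counts in experiment 2, and was not tested. Its highest level was 0.788 CPM, at D10 of experiment 2. CPM values here use the library size after TMM scaling.

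Per kilobase of exon, ADAMTS1 was the most abundant member at D0 with 116 ± 2.16 CPM per kb (SD, n = 2). It was followed by ADAMTS8 at 25.8 ± 3.41, ADAMTS2 at 13.02 ± 1.63, ADAMTS12 at 9.35 ± 0.222 and ADAMTS5 at 8.15 ± 1.25 CPM per kb. ADAMTS15 stood at 2.18 ± 0.362, ADAMTS9 at 1.76 ± 0.00989, ADAMTS14 at 0.464 ± 0.0269, ADAMTS6 at 0.288 ± 0.241 and ADAMTS4 at 0.0262 ± 0.00271 CPM per kb. The ranges of the 2 experiments did not overlap between neighbours in this order, except for ADAMTS14 and ADAMTS6. At D10 ADAMTS1 was still first with 60.4 ± 2.05 and ADAMTS8 second with 12.5 ± 0.370 CPM per kb. The ranges of the members ranked from ADAMTS2 to ADAMTS5 overlapped there, and by its mean ADAMTS15 had moved to rank 9 with 0.320 ± 0.000952 CPM per kb. That rank was not resolved. The range of ADAMTS15 lay within those of ADAMTS14 (0.225 to 0.583) and ADAMTS6 (0.111 to 1.61 CPM per kb).

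**Figure D1:**
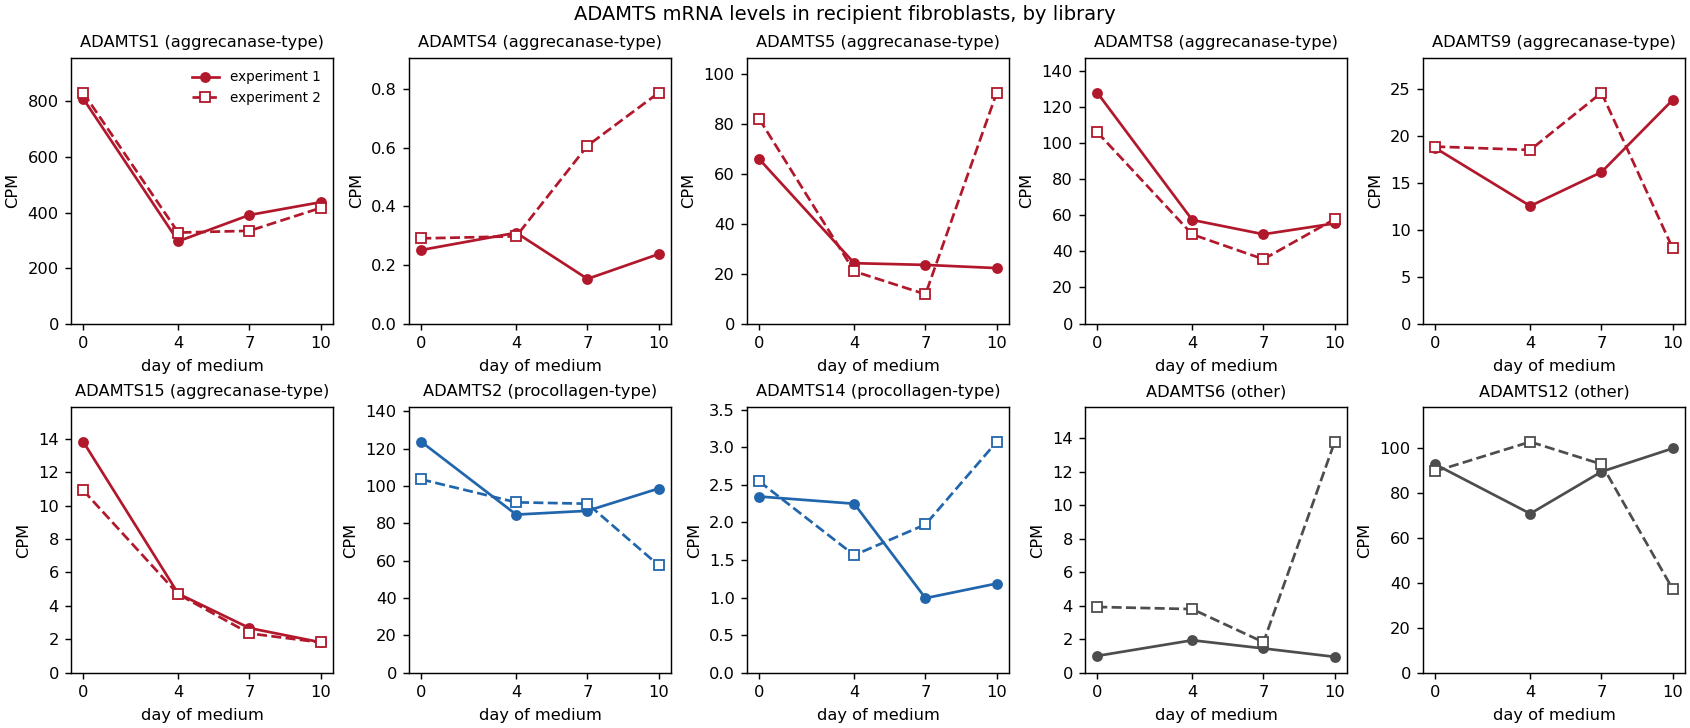
Level of each ADAMTS member (vertical axis, TMM-scaled CPM on a linear scale from 0) by the day of 4-OHT induction of the donor cells (horizontal axis). Each point is a library; circles with solid lines are experiment 1 and squares with dashed lines experiment 2. ADAMTS1, ADAMTS8 and ADAMTS15 lie below D0 on each later day in both experiments, while at D10 ADAMTS5 reads 22.2 CPM in experiment 1 and 92.4 CPM in experiment 2.

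ADAMTS15, an aggrecanase-type enzyme that also cuts versican, was the member with the largest fall at D10. Its D0 libraries stood at 13.8 and 10.9 CPM (experiments 1 and 2). It was at 4.73 and 4.69 CPM at D4, 2.67 and 2.35 CPM at D7, and 1.82 and 1.81 CPM at D10. No D4, D7 or D10 library overlapped D0, and the level went down at each step in both experiments. At D10 the level was 13.2% of D0 in experiment 1 and 16.6% in experiment 2. The fitted log2 fold change at D10 was -2.76 (SE 0.313), with an edgeR quasi-likelihood p of 0.0226 after adjustment over 13798 genes, and 0.000956 when the experiment was included as a replicate block.

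At D7 the log2 fold change of ADAMTS15 was -2.29 (SE 0.304; edgeR adjusted p = 0.240, with the block 0.00667), and at D4 it was -1.39 (SE 0.291; edgeR adjusted p = 0.757, with the block 0.0575). The fall from D4 to D10 was tested directly and was -1.37 (SE 0.310; edgeR adjusted p = 0.302), or -1.37 with the block (SE 0.266; edgeR adjusted p = 0.0364). The call at D10 without the block depended on single libraries. Leaving out each library in turn gave adjusted p-values of 0.0356 to 0.177, and only the fit without D10 replicate 1 kept it, whereas with the block it was kept in 8 of 8 such fits (7.91e-05 to 0.0101). The blocked call between D4 and D10 was kept in 2 of 8 fits, those without either D10 library (0.0317 to 0.172 over the 8). Those 2 fits called 13.4% (7.12% lower) and 2.6% (0.699% lower) of all genes between D4 and D10.

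ADAMTS1, a secreted protease of versican and aggrecan and the member with most RNA in these cells, was at its lowest at D4 in experiment 1. In experiment 2 it was about equally low at D4 and D7 (4403 and 4406 counts). It stood at 809.6 and 831.2 CPM at D0, 296.5 and 327.8 CPM at D4, 391.1 and 334.2 CPM at D7, and 437.2 and 416.7 CPM at D10. Neither experiment overlapped D0 on any later day. These are 36.6% and 39.4% of the D0 level at D4 and 54.0% and 50.1% at D10. The log2 fold change was -1.39 (SE 0.231) at D4, -1.18 (SE 0.230) at D7 and -0.94 (SE 0.229) at D10. None of these passed without the block (edgeR adjusted p = 0.739, 0.307 and 0.158), and all 3 passed with it (0.0197, 0.0192 and 0.0157). The step from D4 to D10, 0.45 (SE 0.227), did not pass in either fit (edgeR adjusted p = 0.939, with the block 0.209).

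ADAMTS8, an aggrecanase-type enzyme of lung and heart, was also below D0 in both experiments on each later day. It was at 127.7 and 105.9 CPM at D0, 57.4 and 49.4 CPM at D4, 49.4 and 35.6 CPM at D7, and 55.4 and 57.8 CPM at D10, with no overlap with D0. Its log2 fold change was -1.13 (SE 0.235) at D4, -1.46 (SE 0.237) at D7 and -1.04 (SE 0.234) at D10. As with ADAMTS1, edgeR called none of these without the block (adjusted p = 0.757, 0.292 and 0.130) and all 3 with it (0.0300, 0.00667 and 0.00719). From D4 to D10 it moved by 0.09 (SE 0.233; edgeR adjusted p = 0.984). With all 8 libraries, ADAMTS15 was thus the only aggrecanase-type member to pass the test between D4 and D10, and only with the block.

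The calls of ADAMTS1 and ADAMTS8 depended on the libraries in the fit as well as on the block. With the block and 1 library left out, those at D10 were kept in 6 of 8 fits each and lost without either D0 library. At D7 ADAMTS1 was called in 4 of 8, ADAMTS8 in 5 of 8 and ADAMTS15 in 4 of 8 such fits. The calls of ADAMTS1 and ADAMTS8 at D4 were kept only without D10 replicate 1 or without D10 replicate 2, in 2 of 8 fits. ADAMTS15 and ADAMTS5 were called lower at D4 in the same 2 fits, which called 3.42% (1.98% lower) and 3.18% (1.89% lower) of all tested genes. At D7 these 2 fits called ADAMTS1, ADAMTS5, ADAMTS8 and ADAMTS15 lower, against 5.7% (2.9% lower) and 5.49% (2.84% lower) of all genes. At D10 the blocked fit without D10 replicate 1, which leaves the library of experiment 2 alone in that group, called ADAMTS2 (-0.95), ADAMTS9 (-1.41) and ADAMTS12 (-1.36) lower and ADAMTS6 (2.09) higher on the log2 scale, besides ADAMTS1, ADAMTS8 and ADAMTS15. That fit called 13.3% of all genes at D10 (7.16% lower). Without D10 replicate 2 it called ADAMTS5 lower (-1.87) besides those 3 and none of the other 4, against 6.32% of all genes (2.58% lower). In these fits the lone D10 library was assumed to vary like the other groups.

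**Figure D2:**
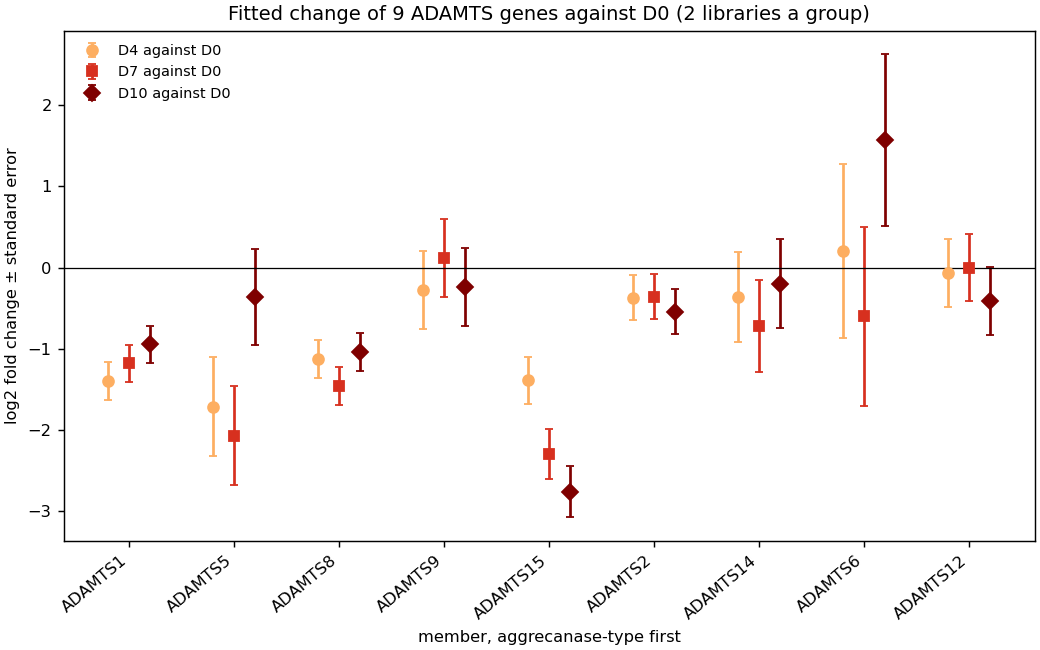
Fitted log2 fold change against D0 (vertical axis; points, with bars of 1 standard error, from the edgeR fit without the replicate block) of the 9 members tested (horizontal axis), at D4 (circles), D7 (squares) and D10 (diamonds). ADAMTS15 goes from -1.39 at D4 to -2.76 at D10, ADAMTS1 and ADAMTS8 lie between -0.94 and -1.46 on all 3 days, and ADAMTS6 has the widest bars.

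ADAMTS5, the main aggrecanase of cartilage, was low in both experiments at D4 and D7 but not at D10. Its levels were 65.8 and 81.9 CPM at D0, 24.2 and 20.9 CPM at D4, and 23.5 and 11.8 CPM at D7. At D10 the library of experiment 1 still read 22.2 CPM, whereas that of experiment 2 read 92.4 CPM, above both D0 libraries. The log2 fold change was -1.71 (SE 0.606) at D4 and -2.07 (SE 0.615) at D7, and neither passed in edgeR without the block (adjusted p = 1.0 and 0.683) or with it (0.394 and 0.190). When either D10 library was left out of the blocked fit, ADAMTS5 was called at both D4 and D7, and DESeq2 called it at D7 with all libraries (log2 fold change -2.06, adjusted p = 0.0391). The D10 value of -0.37 (SE 0.588; edgeR adjusted p = 0.998) covers experiments that went opposite ways: the change within experiment 1 was -1.56 and that within experiment 2 was 0.17, on the log2 CPM scale with a prior count of 2.

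ADAMTS9, an aggrecanase-type enzyme with a long tail of thrombospondin repeats, moved in opposite directions in the experiments at D7 and D10. It stood at 18.8 and 18.9 CPM at D0, 12.6 and 18.5 CPM at D4, 16.2 and 24.6 CPM at D7, and 23.9 and 8.03 CPM at D10. The D10 libraries lay on either side of both D0 libraries, and the log2 fold changes of -0.28 (SE 0.479) at D4, 0.12 (SE 0.477) at D7 and -0.24 (SE 0.479) at D10 did not pass (edgeR adjusted p = 1.0, 1.0 and 0.998). With ADAMTS9 and the untested ADAMTS4 counted, 3 of 6 aggrecanase-type members passed the blocked test at D10, all lower, where 4.99% of all genes were called and 2.45% were called lower. The median over the 5 tested was -1.39 at D4, -1.46 at D7 and -0.94 at D10 on the log2 scale, against 0.00 over all tested genes at D7 and at D10 and 0.01 at D4.

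Neither procollagen-type member passed the test on any day with all 8 libraries. ADAMTS2, the main procollagen N-propeptidase, stood at 123.7 and 103.6 CPM at D0, 84.7 and 91.3 CPM at D4, 86.8 and 90.6 CPM at D7, and 98.7 and 57.5 CPM at D10. All 6 later libraries lay below both D0 libraries. The largest fitted difference, -0.54 (SE 0.277) at D10, did not pass in edgeR without the block (adjusted p = 0.778) or with it (0.207). ADAMTS14, which cuts the same propeptide, was a low transcript: 2.34 and 2.54 CPM at D0, 2.25 and 1.56 CPM at D4, 0.992 and 1.97 CPM at D7, and 1.19 and 3.07 CPM at D10. Those values rest on 13 to 39 counts, and at D10 they lay on either side of D0, with a log2 fold change of -0.20 (SE 0.551; edgeR adjusted p = 0.998).

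Neither of the other members passed the test on any day with all 8 libraries. ADAMTS12, a protease that cuts COMP, was steady at D0 and D7, with 92.9 and 89.8 CPM at D0, 70.9 and 103.0 CPM at D4, and 89.7 and 93.0 CPM at D7. It then split at D10 into 100.05 CPM in experiment 1 and 37.3 CPM in experiment 2 (log2 fold change -0.41, SE 0.418; edgeR adjusted p = 0.998). ADAMTS6, which cuts the microfibril protein fibrillin-2, was at 1.00 and 3.93 CPM at D0, 1.94 and 3.80 CPM at D4, 1.45 and 1.82 CPM at D7, and 0.949 and 13.8 CPM at D10. Only the D10 library of experiment 2 was high, with 175 counts against 12 in experiment 1, and the D10 log2 fold change of 1.56 had an SE of 1.06 (edgeR adjusted p = 0.958, with the block 0.331).

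Of the 9 members tested, edgeR without the block called 0 at D4, where 0.0% of all tested genes were called, 0 at D7, again with 0.0% of all genes, and 1 at D10, where 0.290% of all genes were called and 0.0942% were called lower. At an unadjusted edgeR p under 0.05 there were 409 genes at D4 and 599 at D7, both below a 0.05 share of the 13798 tested. The fit without the block counts the difference between experiments as spread. Its common dispersion was 0.0792, against 0.0242 with the block. With the replicate block 2 members were called at D4, against 0.275% of all genes (0.188% lower), 3 at D7, against 1.25% (0.739% lower), and 3 at D10, against 4.99% (2.45% lower). DESeq2 called 2 members at D4, against 0.354% of its tested genes (0.188% lower), 4 at D7, against 0.848% (0.449% lower), and 3 at D10, against 2.83% (1.25% lower). Each member called in these fits was lower than D0, and the D4, D7 and D10 comparisons share the D0 libraries. Between D10 and D4, edgeR called 0 members without the block, where 0.00725% of all genes were called, 0.0% lower, and 786 had an unadjusted p under 0.05. DESeq2 called 0 there (1.14% of all genes, 0.254% lower), and the block called 1, ADAMTS15, lower (2.55% of all genes, 0.833% lower).

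The agreement between experiments depended on the member. At D4, 7 of 9 members were lower than D0 in both experiments, 0 were higher in both and 2 moved in opposite directions. At D7 these counts were 6, 0 and 3, and at D10 they were 4, 0 and 5. The 4 members lower in both experiments at D10 were ADAMTS1, ADAMTS2, ADAMTS8 and ADAMTS15. Of all tested genes, 28.9%, 31% and 32.3% were lower in both experiments at D4, D7 and D10, and 41.1%, 37.4% and 36.5% went opposite ways.

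Within experiments 1 and 2 the log2 change at D10 was -2.82 and -2.49 for ADAMTS15, -1.20 and -0.87 for ADAMTS8, and -0.889 and -0.996 for ADAMTS1. For the members that split, it was 0.35 and -1.22 for ADAMTS9, 0.11 and -1.26 for ADAMTS12, -0.07 and 1.77 for ADAMTS6, and -0.90 and 0.26 for ADAMTS14. At D10 experiment 2 exceeded experiment 1 by 3.66 on the log2 scale for ADAMTS6 and by 2.05 for ADAMTS5, and was different by -1.55 for ADAMTS9 and -1.42 for ADAMTS12. For ADAMTS15, ADAMTS8 and ADAMTS1 this gap was -0.01, 0.06 and -0.07. The gap of ADAMTS15 rests on 23 counts in each library, too few to fix it so closely. The SD of the gap over all tested genes was 0.764 at D10 and 0.568 to 0.697 in the other groups. The type I collagen genes COL1A2 and COL1A1, the fibroblast markers with the highest levels at D0, read 12373 and 2858 CPM and 9422 and 1293 CPM in the same 2 libraries, and the part of this library in the splits was not tested. The experiments themselves were compared in the blocked fit, where 34.8% of all genes were called (16.2% lower in experiment 2) and 1 of 9 members: ADAMTS6 was higher in experiment 2 by 1.82 on the log2 scale (SE 0.501; edgeR adjusted p = 0.0240).

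**Figure D3:**
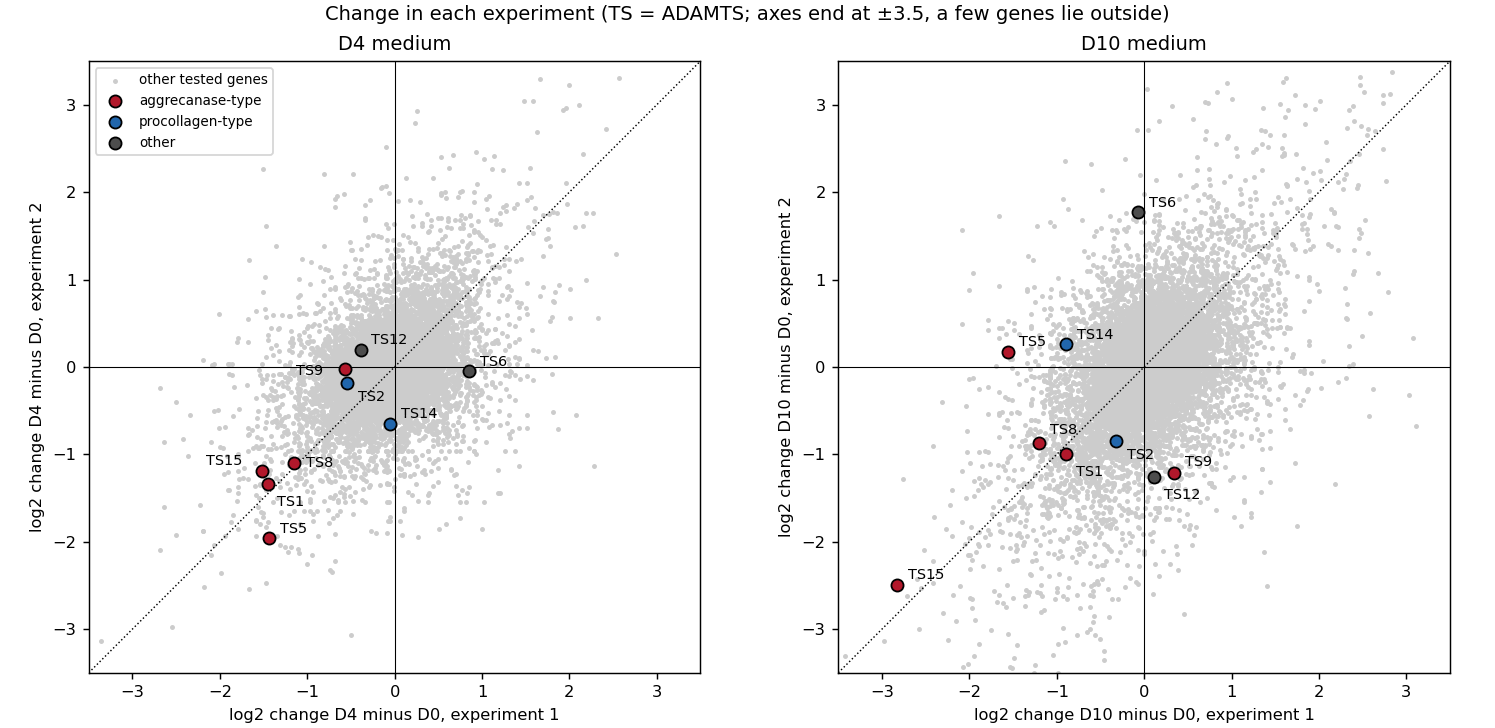
Log2 change against D0 in experiment 1 (horizontal axis) and experiment 2 (vertical axis), for D4 on the left and D10 on the right; grey points are all tested genes, coloured points the 9 members by type, and the dotted line marks equal change. At D4 ADAMTS1, ADAMTS5, ADAMTS8 and ADAMTS15 lie low in both experiments, and at D10 ADAMTS5, ADAMTS6, ADAMTS9, ADAMTS12 and ADAMTS14 lie off the line with opposite signs.

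Across the 8 libraries the members fell in sets with like profiles, given here as a description. The points share libraries, depth and groups. Pearson's r of log2 CPM was 0.905 between ADAMTS1 and ADAMTS8, 0.833 between ADAMTS8 and ADAMTS15 and 0.724 between ADAMTS1 and its neighbour ADAMTS5. ADAMTS12 went with ADAMTS9 (0.918) and with ADAMTS2 (0.848), and against ADAMTS6 (-0.766). In the D10 library of experiment 2, ADAMTS12, ADAMTS9 and ADAMTS2 were at their lowest (37.3, 8.03 and 57.5 CPM). ADAMTS6 was at its highest in that library (13.8 CPM). The part of that library in these correlations was not tested. The correlation of ADAMTS1 with ADAMTS12 was 0.131. Among all tested genes, the 3 with the profile most like that of ADAMTS15 over the 8 libraries were FAXC (0.996), AJUBA (0.982) and the cardiac troponin gene TNNT2 (0.978). AJUBA, a LIM-domain protein of cell junctions, went from 109 and 113 CPM at D0 to 50.5 and 51.2 CPM at D10. FAXC went from 1.76 and 1.74 CPM to 0.475 and 0.473 CPM, and TNNT2 from 2.76 and 2.69 CPM to 0.0791 and 0 CPM. At D10 FAXC and TNNT2 thus lay near the floor, where the prior count of 2 weighs on log2 CPM.

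Summed over the 10 members, the level was 1256 and 1249 CPM at D0, 555 and 621 CPM at D4, 662 and 597 CPM at D7, and 742 and 689 CPM at D10. ADAMTS1 made up 64.2% and 66.9% of the sum per kilobase at D0 and 54.5% and 55.3% at D4, so the sum largely followed this gene. At D10 its share was 61.2% and 61.6%.

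Genes that act with these enzymes were taken from 6 lists of 49 relatives, substrates, inhibitors and activators, of which 47 were in the table and 34 were tested. In edgeR 0 passed on any day without the block. With it 1 was lower at D4, 1 at D7 and 3 at D10, and 0 were higher. That fit called 0.188%, 0.739% and 2.45% of all genes lower. DESeq2, also without the block, called 1 of the other substrates lower at D4, D7 and D10. It also called 1 gene of the inhibitors, convertases and clearance receptors lower at D10. DESeq2 called 0.188%, 0.449% and 1.25% of its tested genes lower at D4, D7 and D10. The median log2 fold change of the 34 in the blocked fit was -0.28 at D4, -0.20 at D7 and -0.36 at D10. FBN2, the gene of fibrillin-2, a microfibril protein, was called lower on all 3 days: it stood at 1164 and 1126 CPM at D0, 310 and 424 CPM at D4, 432 and 376 CPM at D7, and 440 and 291 CPM at D10 (at D10 a log2 fold change of -1.66, SE 0.246, edgeR adjusted p = 0.00701 with the block and 0.0779 without).

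SDC4, the gene of syndecan-4, a cell-surface proteoglycan, was at 383 and 468 CPM at D0 and 198 and 195 CPM at D10 (blocked log2 fold change -1.10, SE 0.166; edgeR adjusted p = 0.00748), and like ADAMTS15 it was also called between D4 and D10 (-0.82, SE 0.165; edgeR adjusted p = 0.0404). DCN, the gene of decorin, a small collagen-binding proteoglycan, went from 4336 and 3588 CPM at D0 to 2136 and 571 CPM at D10 (blocked log2 fold change -1.75, SE 0.384; edgeR adjusted p = 0.0362). Its D10 libraries differed in the same direction as the fibroblast marker sums. Without D10 replicate 2 the blocked fit still called DCN (-1.10), FBN2 (-1.35) and SDC4 (-0.93) lower at D10 (edgeR adjusted p = 0.00582, 0.00197 and 0.00521), but not SDC4 between D4 and D10 (0.0725). Without D10 replicate 1 it called 16 of 35 tested related genes lower at D10, among them COL1A1, COL1A2 and COL3A1, where 7.16% of all genes were called lower.

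By list, 0 of 5 tested other ADAMTS proteases were called in either fit. The largest D10 value among them was that of ADAMTS3, the other procollagen N-propeptidase, at 0.89 (SE 0.504; edgeR adjusted p = 0.854). ADAMTS3 read 1.00 and 1.45 CPM at D0 and 2.85 and 1.73 CPM at D10. Of the ADAMTS-like proteins, 0 of 4 were called, and ADAMTSL1 had the largest D10 value, -0.31 (SE 0.566; edgeR adjusted p = 0.998). ADAMTSL1 stood at 4.02 and 3.34 CPM at D0, 7.52 and 10.6 CPM at D4, 7.55 and 8.34 CPM at D7, and 4.75 and 1.18 CPM at D10. Its log2 fold change was 1.30 (SE 0.552) at D4 and 1.11 (SE 0.551) at D7, which did not pass with all 8 libraries (edgeR adjusted p = 1.0 on both days, with the block 0.461 and 0.448). The blocked fits without D10 replicate 1 or 2 called it higher at D4 (1.31 and 1.30) and at D7 (1.12 and 1.11). No other related gene was called higher on these days in those fits. Both fits called ADAMTS7, COL3A1, FBN2, NID1 and NID2 lower at D4, and COL3A1, DCN, FBN2, NID2 and SDC4 lower at D7. In the procollagen list 0 of 7 were called with all 8 libraries. All 7 had fitted values below 0 on each day, and COL1A1 led at D10 with -1.11 (SE 0.771, edgeR adjusted p = 0.968). Within experiment 2, COL1A1 (0.08) and BMP1 (0.01) lay above D0 at D4. At D7 COL1A1 (0.02), PCOLCE (0.23) and BMP1 (0.18) did so there. BMP1 was at 0.02 at D10 of experiment 1. The D10 change of COL1A1 was -0.62 in experiment 1 and -2.75 in experiment 2. Of the proteoglycan list 1 of 3 (DCN), of the other substrates 1 of 5 (FBN2) and of the inhibitors, convertases and clearance receptors 1 of 10 (SDC4) were called with the block at D10. TIMP4, an inhibitor, had the largest value of that list in the fit without the block, at -1.13 (SE 0.540; edgeR adjusted p = 0.716), on 8 to 27 counts a library.

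The classical substrate of the aggrecanases, aggrecan, was hardly transcribed: ACAN had 0 or 1 counts in each library. Versican, the related proteoglycan of soft tissue, was present, with VCAN at 161 and 155 CPM at D0, 83.0 and 180 CPM at D4, 103 and 231 CPM at D7, and 131 and 130 CPM at D10 (log2 fold change at D10 -0.28, SE 0.443; edgeR adjusted p = 0.998). TIMP3, the inhibitor known to act on the aggrecanases, stood at 743 and 1089 CPM at D0 and 699 and 1228 CPM at D10, and its D10 log2 fold change was 0.07 (SE 0.343; edgeR adjusted p = 0.998).

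**Figure D4:**
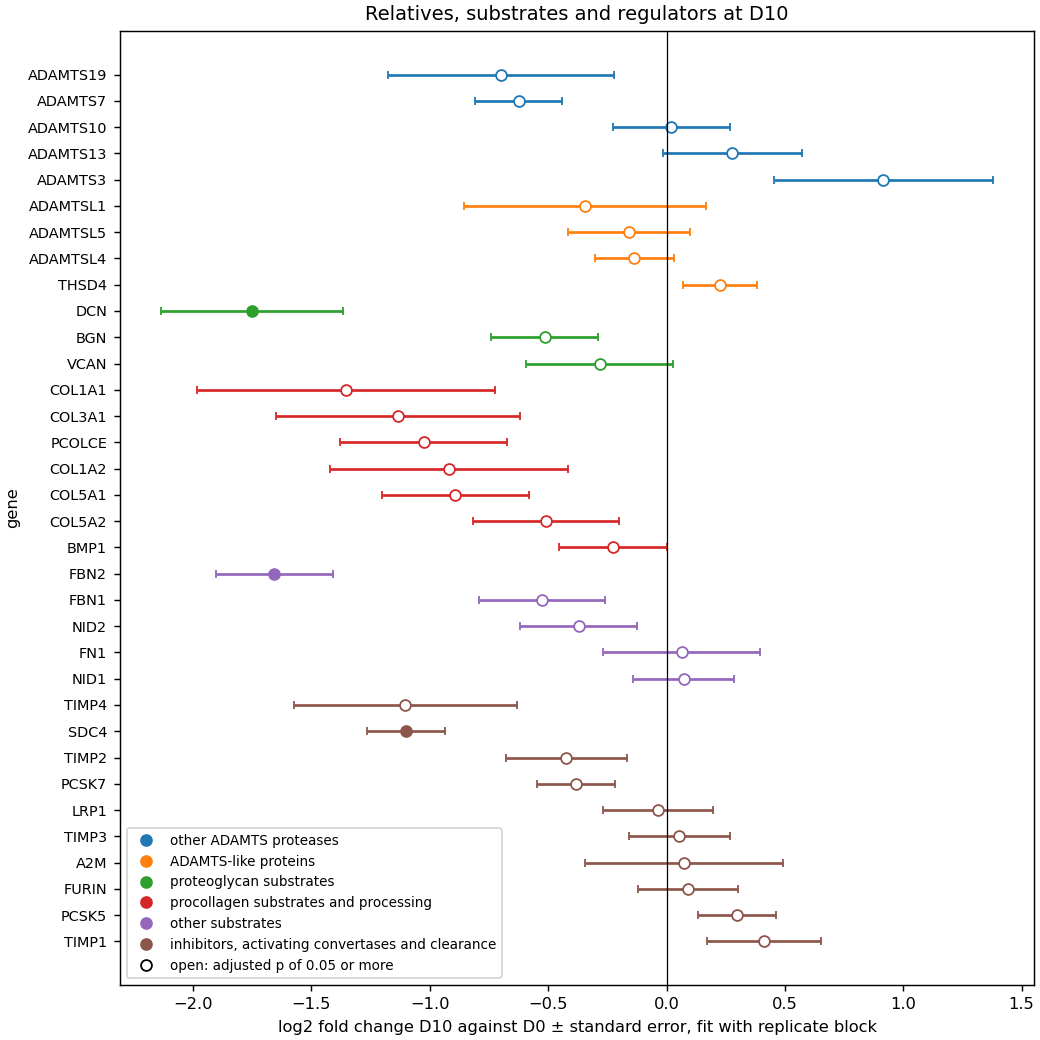
Log2 fold change at D10 against D0 (horizontal axis; points with bars of 1 standard error, edgeR with the replicate block) of the 34 tested related genes (vertical axis), coloured by list; filled points have an adjusted p under 0.05. The 3 filled points are DCN at -1.75, FBN2 at -1.66 and SDC4 at -1.10, and the procollagen genes all lie left of 0.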

How the data were processed

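Poly(A) RNA of 8 libraries was sequenced with a stranded kit. The authors deposited raw counts per gene, whole numbers, which were used, and 8 columns of RPM, which were not. The submitters' processing notes name STAR 2.5, DESeq2, GRCh38 and hg38; the counting tool and strand setting are not given in the sources used here. A column headed DO was taken as D0 replicate 1. Of the identifiers, 99.6% were in GENCODE 29, the source of positions and sequences.

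edgeR 4.0.16 (R 4.3.3; filterByExpr, TMM, glmQLFit, glmQLFTest) used the 4 groups together, all 8 libraries sharing an estimate of the spread. It tested 13798 of 27696 genes, with Benjamini-Hochberg adjustment at 0.05. Alternatives were a replicate block, each library left out, DESeq2 1.42.0, its size factors alone, fits to the compared groups, no filter, and a minimum of 10 counts per library. The block with a library left out was added after seeing the data. The replicate numbers mark 2 independent experiments, and libraries with the same number departed from their groups together (r 0.418 to 0.722 over genes in all 6 pairs of groups), so the numbers pair the libraries. Log2 CPM used a prior count of 2. The tests were run on simulated counts with a single dispersion for all genes and an experiment effect equal in all groups. That setting does not cover genes of differing spread or a library that departs from its experiment. With 2 libraries a group, precision is limited by their number.

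The members and lists were chosen with earlier results of these data known. Named related genes were those called in either fit and, per list, the one with the largest absolute D10 value. VCAN, TIMP3 and ACAN were added after their values were seen.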

Additional observations from a re-analysis of the deposited data

Results flagged for a closer look

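For 5 of the 9 members tested the libraries of the 2 experiments moved in opposite directions from D0 on at least 1 day, and the difference itself was not tested. As a difference in log2 change, experiment 2 minus experiment 1, ADAMTS5 at D10 gave 1.73, and ADAMTS14 at D10 gave 1.16. ADAMTS9 gave 0.59 at D7 and -1.57 at D10. ADAMTS6 gave -0.90 at D4, -1.52 at D7 and 1.84 at D10. ADAMTS12 gave 0.59 at D4, 0.10 at D7 and -1.37 at D10. At D10, 36.5% of all 13798 tested genes moved in opposite directions, and the D10 library of experiment 2 was also the shallowest and the lowest in fibroblast markers. The part of that library in these values was not tested.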

How the results depend on the processing

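For the 9 tested members, 486 log2 fold changes under alternatives kept direction and side of the threshold, 19 gained a call, 8 lost it (all ADAMTS15 at D10) and 27 changed sign. Members called at D4 were 2 with DESeq2 and 2 with the replicate block, at D7 4 with DESeq2, 3 without the filter and 3 with the block, at D10 3 with DESeq2, 0 with the compared groups only and 3 with the block, and between D10 and D4 1 with the block. Leaving out 1 library gave 0 to 1 members at D10, and with the block 0 to 4 at D4, 0 to 4 at D7, 1 to 7 at D10 and 0 to 6 between D10 and D4. The highest counts came without D10 replicate 1, at D4 and D7 also without D10 replicate 2.

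Over all genes, D4 gave 0 calls and 47 with DESeq2, 21 without the filter and 38 with the block. D7 gave 0, and likewise 117, 93 and 172. D10 gave 40, and likewise 390, 371 and 688, with 20 at 10 counts in every library, 0 with the compared groups only and 0 to 155 leaving out 1 library (155 without D10 replicate 1). D10 against D4 gave 1, and likewise 157, 147 and 352, with 6 with DESeq2 size factors, 6 with the compared groups only and 0 to 83 leaving out 1 library (83 without D10 replicate 1). With the block, leaving out 1 library gave 0 to 491 genes at D4, 0 to 819 at D7, 113 to 1906 at D10 and 23 to 1926 between D10 and D4, each highest without D10 replicate 1. The cause was not tested.

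Sign changes concerned values that did not pass. ADAMTS12 at D7 was 0.009957 with DESeq2, 0.009963 with its size factors, 0.004895 without the filter and 0.002169 with the replicate block. The rest came from leaving out 1 library, over which the log2 fold change ranged as follows. ADAMTS5 ranged from -1.73 to 0.34 (D10) and -0.022 to 2.04 (D10 from D4). ADAMTS8 ranged from -0.024 to 0.21 (D10 from D4). ADAMTS9 ranged from -0.22 to 0.39 (D7), -1.21 to 0.34 (D10) and -0.94 to 0.62 (D10 from D4). ADAMTS2 ranged from -0.61 to 0.16 (D10 from D4). ADAMTS14 ranged from -1.04 to 0.34 (D10) and -0.68 to 0.69 (D10 from D4). ADAMTS6 ranged from -0.45 to 1.505 (D4), -1.26 to 0.70 (D7), -1.38 to 2.85 (D10) and -1.59 to 2.27 (D10 from D4). ADAMTS12 ranged from -0.36 to 0.17 (D4), -0.026 to 0.029 (D7), -1.27 to 0.13 (D10) and -1.21 to 0.20 (D10 from D4).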

Other observations

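ADAMTS7, a relative of ADAMTS12 that also cuts COMP, was named after its values were seen. It stood at 50.2 and 42.7 CPM at D0, 26.0 and 29.9 CPM at D4, 27.5 and 36.8 CPM at D7, and 32.0 and 28.3 CPM at D10, with all 6 later libraries below both D0 libraries. The log2 fold change was -0.73 (SE 0.230) at D4 and -0.62 (SE 0.230) at D10. With all 8 libraries the D10 value did not pass in edgeR without the replicate block (adjusted p = 0.469) or with it (0.105). The D4 value did not pass in either fit (edgeR adjusted p = 0.197 with the block). The blocked fits without D10 replicate 1 or 2 called ADAMTS7 lower at D4 (-0.73 and -0.74). At D10 they gave -0.76 and -0.48, and only the fit without D10 replicate 1 called it lower.

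The antisense gene ADAMTS9-AS2, also named after its values were seen, had 6, 4, 7 and 9 counts in experiment 1 (D0, D4, D7 and D10) and 9, 14, 16 and 37 counts in experiment 2. It shares no exon bases with ADAMTS9, whose own count was lowest in the library where ADAMTS9-AS2 was highest, D10 of experiment 2, with 102 counts. Other libraries went the other way. At D7 of experiment 2, with the next highest ADAMTS9-AS2 count of 16, ADAMTS9 had its highest count, 325. In experiment 1 both genes were highest at D10, with 9 and 302 counts. A relation between the 2 genes was not tested.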
